A study of Mus musculus with 30 samples.

Results

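The transcriptional response to a low induction of Irf4 was read in Irf4-/- mouse B cells after 3 days of stimulation, by setting 3 cultures with low doxycycline (DOX) against 3 cultures without it. These 6 arrays were chosen by their sample titles out of 30 in the series, and each low culture was paired with the zero culture of the same replicate number. All cells were resting mature B cells from spleen, of the C57BL/6, B1-8i background, from mice that lack both copies of Irf4 and carry an Irf4 gene switched on by doxycycline. The stimulus was CD40L together with IL-5, IL-4 and IL-2, without DOX (zero) or with 16 ng/mL (low) or 100 ng/mL (high). The high cultures of the same day, 3 in number, entered the same fit and show where the low dose lies. Irf4+/+ (wild-type) cells of day 3, with the same stimulation and no DOX, are given as levels only.

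Per the series text every replicate used B cells of 1 mouse, and of the 3 replicates of a group 2 ran side by side and 1 at another time, with no word on which. The labels give neither the promoter of the inducible gene nor a culture that received DOX without it, so DOX and Irf4 induction cannot be told apart. The submitters chose the doses for low and high numbers of plasma cells, and RNA came from whole cultures. In such bulk samples fewer cells of a type and less RNA per cell cannot be told apart.

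IRF4 is a transcription factor of activated lymphocytes. Small amounts support germinal centre B cells, and larger amounts, sustained over days, drive plasma cell differentiation, in part through Prdm1, which encodes the repressor Blimp-1. A B cell that becomes a plasma cell shuts down its B cell programme, builds a large endoplasmic reticulum (ER) and secretes antibody. IRF4 binds DNA weakly alone and strongly beside PU.1 or SPIB at Ets-IRF composite elements (EICE), and at high amounts also at interferon-stimulated response elements (ISRE). The ER stress response element (ERSE) is bound by ATF6 and XBP1, which raise ER chaperones.

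Promoters are shown for genes of the ER chaperone and interferon lists, described further on. Only genes that changed and held a match were considered, so neither trait of a shown gene is a result. They come from RefSeq (GRCm38.p6), run from 200 bases before the transcription start to the start, and are written 5′ to 3′ on the gene's strand. Capitals mark the motif. Hspa5 encodes BiP, the main ER chaperone, and Derl3 encodes a membrane protein of ER-associated degradation. Both rose at low DOX, and each holds the ERSE letters (CCAAT, 9 letters of any kind, then CCACG), read on the opposite strand in Derl3. Gbp2b encodes an interferon-induced guanylate-binding protein and Ifit1 an interferon-induced antiviral protein. Both fell at low DOX, and each holds the ISRE letters (GAAA, 2 letters of any kind, then GAAA) on the opposite strand, at 2 places in Ifit1.
Hspa5, chr2:34771890-34772089, plus strand: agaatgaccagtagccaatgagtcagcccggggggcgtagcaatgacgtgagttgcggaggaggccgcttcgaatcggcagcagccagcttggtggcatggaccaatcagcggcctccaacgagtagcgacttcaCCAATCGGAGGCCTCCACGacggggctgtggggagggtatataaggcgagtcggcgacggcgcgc
Derl3, chr10:75893198-75893397, plus strand: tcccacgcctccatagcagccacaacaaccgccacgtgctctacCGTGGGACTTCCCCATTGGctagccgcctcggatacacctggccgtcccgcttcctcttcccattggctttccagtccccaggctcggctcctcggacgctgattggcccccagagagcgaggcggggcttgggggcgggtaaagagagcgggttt
Gbp2b, chr3:142594647-142594846, plus strand: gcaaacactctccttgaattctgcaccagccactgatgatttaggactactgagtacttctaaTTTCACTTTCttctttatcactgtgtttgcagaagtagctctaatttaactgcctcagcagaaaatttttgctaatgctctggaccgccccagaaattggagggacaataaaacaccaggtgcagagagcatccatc
Ifit1, chr19:34640689-34640888, plus strand: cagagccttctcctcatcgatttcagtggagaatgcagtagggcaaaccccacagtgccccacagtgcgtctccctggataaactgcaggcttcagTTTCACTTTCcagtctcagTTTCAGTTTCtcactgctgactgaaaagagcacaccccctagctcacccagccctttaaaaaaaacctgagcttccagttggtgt

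Over the window from 250 bases before to 50 after a start, on both strands, ERSE letters were present in 10 of the 33 ER chaperone and degradation genes that had a promoter in the table (30.3%). They were present in 15 of 9852 tested genes (0.152%) and in 39 of all 32851 promoters (0.119%). Of the genes that rose at least 2-fold, 2 of 89 held them (2.25%). In 2 other lists that mostly rose, they were present in 1 of 24 N-glycosylation genes (4.17%) and 0 of 35 translocon and vesicle coat genes. ISRE letters were present in 7 of 8 interferon-induced GTPase genes (87.5%) and 11 of 20 interferon response genes (55.0%), against 3.62% of tested genes and 3.44% of all promoters. They were also present in 4 of 24 N-glycosylation genes (16.7%), a list that mostly rose, and in 2 of 38 genes that fell at least 2-fold (5.26%). EICE letters (GGAA, 2 letters of any kind, then GAAA) were present in 4 of 89 genes that rose at least 2-fold (4.49%), against 2.86% of tested genes and 2.72% of all promoters, and in 2 of 8 interferon-induced GTPase genes, which fell or were not called. The EICE and ISRE letters differ in the second letter, so no position matches both in 1 orientation. These matches describe letters and are not binding sites.

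The induced gene was read first. One Irf4 probe set followed the dose. It read 7.68, 7.34 and 7.49 in zero replicates 1, 2 and 3, on the scale log2(intensity + 16) that is used for all levels here. It read 13.09, 12.94 and 12.99 at low DOX and 13.66, 13.56 and 13.53 at high DOX. The 9 arrays lay in the order of their labelled doses, with no overlap between groups. Wild-type cells of day 3 read 7.32 ± 0.081 (SD, n = 3) on this set, near the zero DOX level. The set therefore does not measure the Irf4 amount of wild-type cells, and low DOX cannot be placed against wild type by it. The low minus zero difference was 5.50 (SE 0.053, adjusted p = 2.7e-08), or 45.3-fold, and the high minus low difference was 0.58 (adjusted p = 0.0011), so on the log2 scale 90.5% of the zero to high difference was present at 16 ng/mL. The other Irf4 set read 11.10 ± 0.29 (SD, n = 3) at zero and 11.17 ± 0.25 at low DOX (difference 0.07, adjusted p = 0.56). This set reads high in cells without intact Irf4 and checks nothing.

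Low DOX changed a large share of the transcriptome by small amounts. A gene was called at an adjusted p under 0.05 in limma, with replicate number as a block, and is said to have risen or fallen only then. Of 12183 genes tested, 2556 rose (21.0%) and 2855 fell (23.4%). The balance of rises and falls turned with the processing: arrays centred on their medians gave 2458 rises and 2318 falls, and leaving out replicate 1 gave 2098 and 2003. Those changed at least 2-fold numbered 127 higher (1.04%) and 47 lower (0.386%). All low arrays lay above all zero arrays in 2624 genes (21.5%) and below them in 2829 (23.2%). Groups that did not overlap were thus common. The median difference over all genes was -0.033. The median residual SD was 0.0696. Without replicate 2 in all groups 1326 rose and 1327 fell, and without the replicate block 1937 rose and 1923 fell. From low to high DOX 1147 genes rose (9.41%) and 1234 fell (10.1%). Arrays centred on their medians gave 678 and 1286 at that step, and leaving out replicate 2 gave 198 and 243. The 6 arrays of the main comparison had median intensities between 176.7 and 199.4. As a sign of RNA quality, Actb control sets read 0.144 to 0.206 log2 units higher at the 3′ end than at the 5′ end at zero DOX, and 0.153 to 0.225 higher at low DOX.

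The 15 largest rises were led by genes of antibody secretion and plasma cell identity. Jchain, the joining chain of polymeric IgM and IgA, read 6.19, 6.83 and 6.64 at zero and 13.21, 13.18 and 12.50 at low DOX. The difference was 6.41 (SE 0.19, adjusted p = 7.4e-06). Its 3 high arrays read 13.53, 13.62 and 13.31, a further difference of 0.52 that was not called (adjusted p = 0.097). Epcam, a cell adhesion molecule, read 7.62, 7.55 and 7.83 at zero and 11.59, 11.27 and 11.31 at low DOX, a difference of 3.72 (SE 0.084). Bhlha15, which encodes the secretory cell factor Mist1, read 6.25, 6.05 and 6.20 at zero and 10.18, 9.96 and 9.39 at low DOX, a difference of 3.68 (SE 0.14). The other tested set of Epcam differed by 0.79 and that of Bhlha15 by -0.04, so the Bhlha15 rise was seen on its brighter set only. These rises, and the falls below, were picked among genes whose groups did not overlap, so that separation is no result. The other large rises were Cpd, a carboxypeptidase of the secretory pathway (3.66), Klrb1f, a C-type lectin receptor (3.26), Rhpn2 (2.93), Socs2, a feedback inhibitor of cytokine signalling (2.50), Mpzl2 (2.48), Pon3, a paraoxonase (2.43), Rgcc (2.37), Tg, thyroglobulin (2.33), Prdm1 (2.31), Creb3l2, an ER-bound transcription factor (2.25), Slpi, a secreted protease inhibitor (2.25) and Pls1, an actin bundling protein (2.25).

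The 15 largest falls were of a different kind, with many transcripts of myeloid cells and platelets. They were Chil3 (-3.11), S100a9 (-2.94), S100a8 (-2.74), Pf4 (-2.70), Ppbp (-2.40), Gbp2b (-1.89), Lyz1 (-1.63), Cxcl9 (-1.55), Lyz2 (-1.54), Tgm2 (-1.50), Ifng (-1.43), Alox5ap (-1.31), Ctsg (-1.31), Mcpt8 (-1.29) and Maf (-1.27). The values of the marker genes among them are given with the markers of other cells further on.

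**Figure D1:**
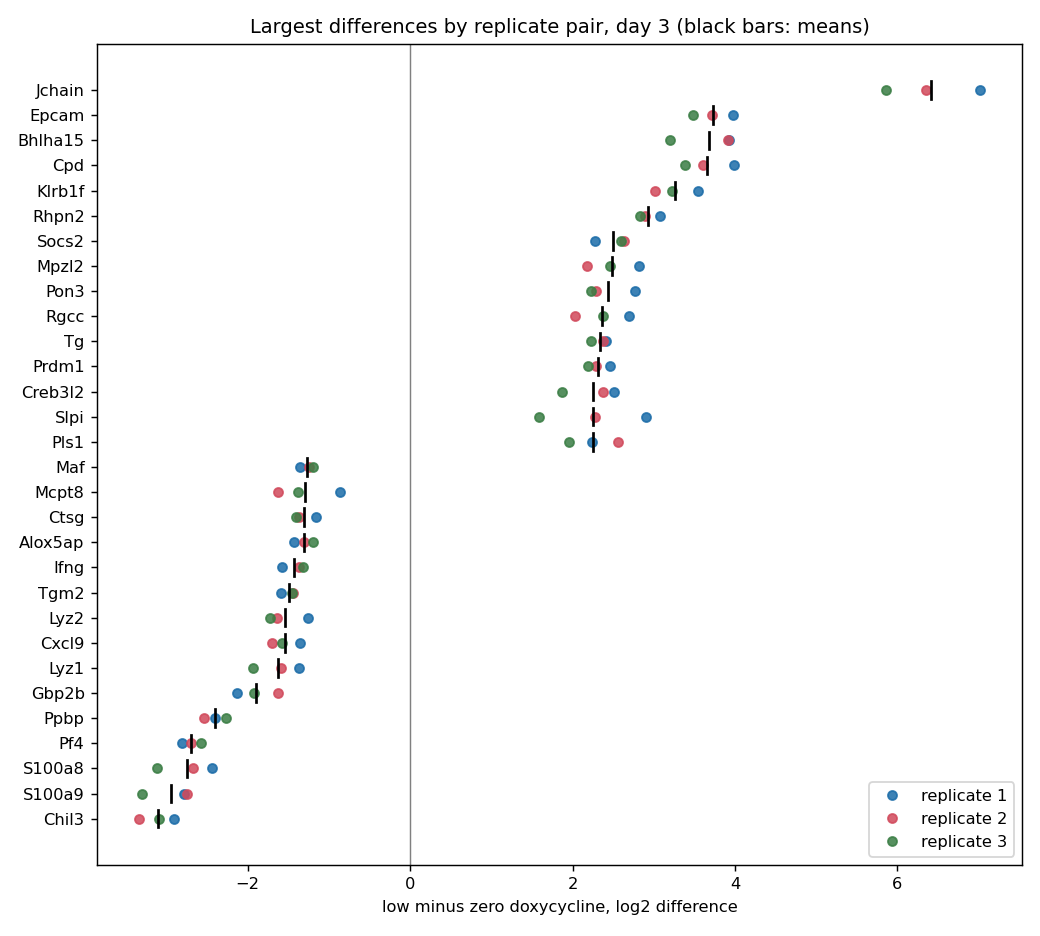
Low minus zero DOX log2 difference of the 15 largest rises and 15 largest falls, 1 point per replicate pair and a black bar at the mean. Because only genes whose groups did not overlap were chosen, all 3 pairs of every gene lie on the same side of 0. Jchain lies apart from the others at a mean of 6.41.

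Several of the strongest rises had wild-type levels near those of zero DOX at the same day. Cpd read 9.38 ± 0.21 (SD, n = 3) at low DOX, against 5.72 ± 0.14 at zero and 5.75 ± 0.094 in wild type. Klrb1f read 10.63 ± 0.069 at low DOX, against 7.37 ± 0.28 at zero and 7.06 ± 0.17 in wild type. Epcam, Rhpn2, Socs2, Mpzl2, Tg and Pls1 also had wild-type means (8.85, 6.12, 11.22, 6.03, 7.58 and 7.91) closer to zero than to low DOX. Jchain differed from these, with a wild-type mean of 13.45 ± 0.023 above the low DOX mean of 12.96 ± 0.40. So did Pon3, with 10.13 in wild type and 9.89 at low DOX. Bhlha15 (9.31), Prdm1 (9.47) and Rgcc (7.53) had wild-type means closer to low than to zero DOX. These levels are a description with no test, since wild-type and Irf4-/- cells came from different mice. By sex-linked transcripts the mice also differed in sex. Xist read 12.45, 12.34 and 12.52 in wild type and 6.17, 6.48 and 12.47 at zero DOX.

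Transcription factors of plasma cells rose almost as a whole. Of the 10 regulators listed, 8 rose and 1 fell, with a median difference of 0.97. Prdm1 read 7.87, 7.89 and 7.53 at zero and 10.33, 10.17 and 9.72 at low DOX, a difference of 2.31 (SE 0.068, adjusted p = 7.4e-06). The low DOX mean of 10.08 lay above the wild-type mean of 9.47 ± 0.096. Xbp1, which drives the secretory programme, was already high and rose less, from 12.82, 12.70 and 12.95 to 13.60, 13.45 and 13.47 (0.68, adjusted p = 0.00025). Eaf2 (1.77) and Ell2 (1.11), both of transcription elongation, Atf6, an ER stress sensor (0.82), and Pou2af1, a B cell coactivator (0.25), also rose. Zbtb20, which supports long-lived plasma cells, fell by 0.51. The Irf4 set that does not follow DOX is the member that was not called.

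Surface and secreted products of plasma cells rose in 17 of 22 members and fell in 3, with a median of 1.31. Sdc1, the plasma cell marker CD138, read 7.60, 7.97 and 7.33 at zero and 10.18, 9.77 and 9.51 at low DOX, a difference of 2.19 with no overlap. Tram2 (2.13), Cd93 (1.86), Cd28 (1.61) and Tnfrsf17, the survival receptor BCMA (0.96), rose as well. Tnfrsf17 was dim at zero DOX (5.87 ± 0.018) and its rise is understated on this scale. The members that fell were Ly6d (-0.35), Itgb7 (-0.26) and Itga4 (-0.21), the last a pair of integrin chains. Without the replicate block 1 member fell. Cxcr4, the bone marrow homing receptor, differed by 0.00 and was not called.

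Immunoglobulin constant regions were measured by 3 genes with a probe set of 1 symbol. Ighm, the heavy chain of IgM, read 14.05, 14.00 and 13.86 at zero and 14.76, 14.79 and 14.69 at low DOX, a rise of 0.77 from a level near the top of the scale. Ighg3 rose by 0.65, a call that was lost in the fit of all 30 arrays. Igha differed by 0.05 and was not called. The other constant region genes were not analysed here.

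**Figure D2:**
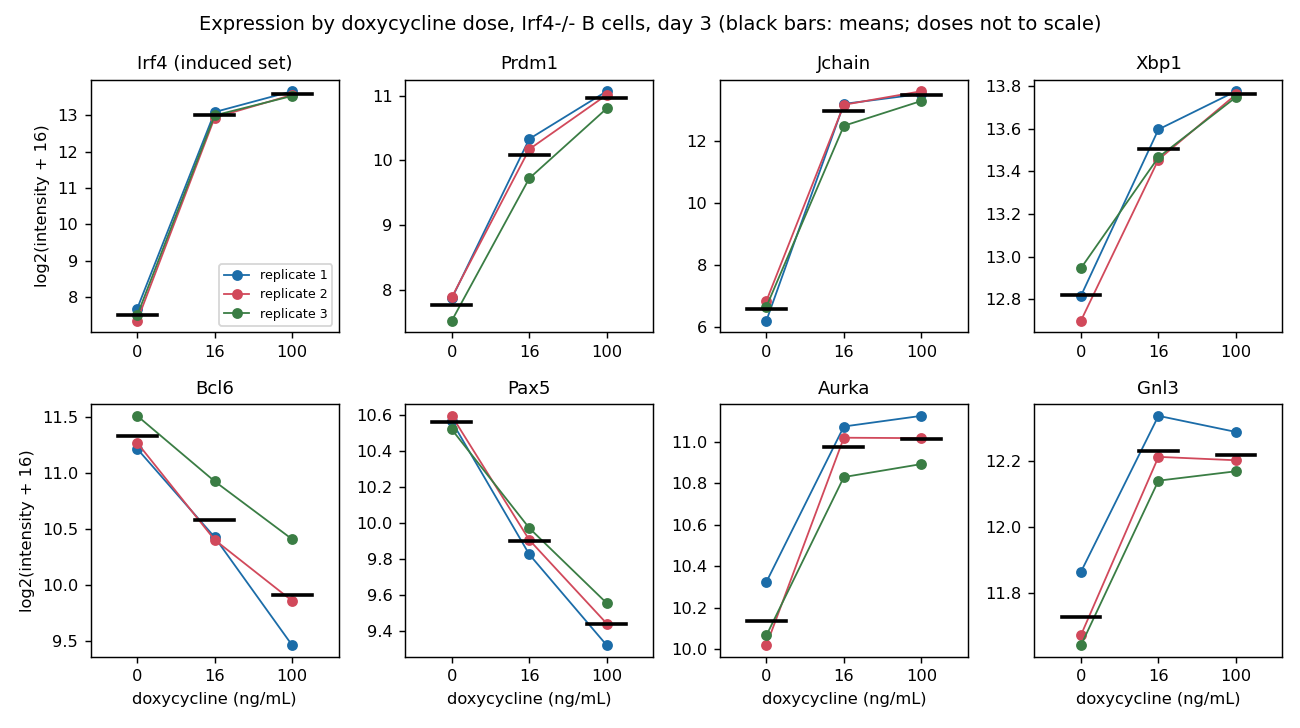
Levels of 8 genes at 0, 16 and 100 ng/mL DOX at day 3, as log2(intensity + 16), with a line per replicate and black bars at the means of 3 arrays. Irf4, Prdm1 and Xbp1 rise at both steps, Jchain rises from zero to low DOX (its second step was not called), Bcl6 and Pax5 fall at both steps, and Aurka and Gnl3 rise from zero to low DOX (0.84 and 0.50) and differ by 0.04 and -0.01 from low to high.

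The secretory apparatus rose broadly and by modest amounts. Among ER chaperones and degradation factors 30 of 36 rose and 1, the oxidase Ero1b (-0.17), fell. The median was 0.49. The largest rises, of which the first 3 also stand among the products above, were Fkbp11, a peptidyl-prolyl isomerase (1.83), Derl3 (1.77), Txndc5, a protein disulfide isomerase (1.61), and Txndc11 (1.53). Derl3 read 8.82, 8.87 and 8.13 at zero and 10.64, 10.58 and 9.90 at low DOX. Replicate 3 was lowest in both groups, yet its low array lay above every zero array. Hspa5, the other ERSE gene printed above, read 13.37, 13.24 and 13.27 at zero and 13.78, 13.70 and 13.60 at low DOX, a rise of 0.40 with no overlap. Other rises were Creld2 (1.16), Hyou1 (1.11), Edem1 (1.07), Hsp90b1 (0.70), Calr (0.35) and Canx (0.28).

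Translocon and vesicle coat genes, which move proteins into the ER and on to the Golgi, rose in 38 of 45 tested members. None fell in limma, and 1 did at an unadjusted p under 0.05. Their median was 0.34, and the count of rises was 26 without replicate 2. Sec24d, a cargo adaptor of COPII coats, stood apart from the rest. It read 7.49, 7.75 and 7.61 at zero and 10.10, 9.87 and 9.37 at low DOX, a difference of 2.16 (SE 0.14). The cargo receptor Lman1 (1.14), the signal recognition receptor subunit Srprb (0.97) and the translocon-associated Ssr2 (0.91) followed. Its relative Sec24a (0.43) rose too, while Sec24c differed by 0.10 and was not called.

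N-glycosylation genes, which build and attach sugar chains in the ER, rose in 24 of 29 members and fell in 1, Srd5a3 (-0.31). The median was 0.35. The largest rises were the mannosyltransferase Alg2 (0.85), the oligosaccharyltransferase subunits Rpn2 (0.81) and Rpn1 (0.74), and the glucosidase Mogs (0.76). Rpn2 read 11.02, 10.93 and 10.97 at zero and 11.88, 11.77 and 11.71 at low DOX. The groups were tight and separate. Without replicate 2 this list's count of rises was 15.

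**Figure D3:**
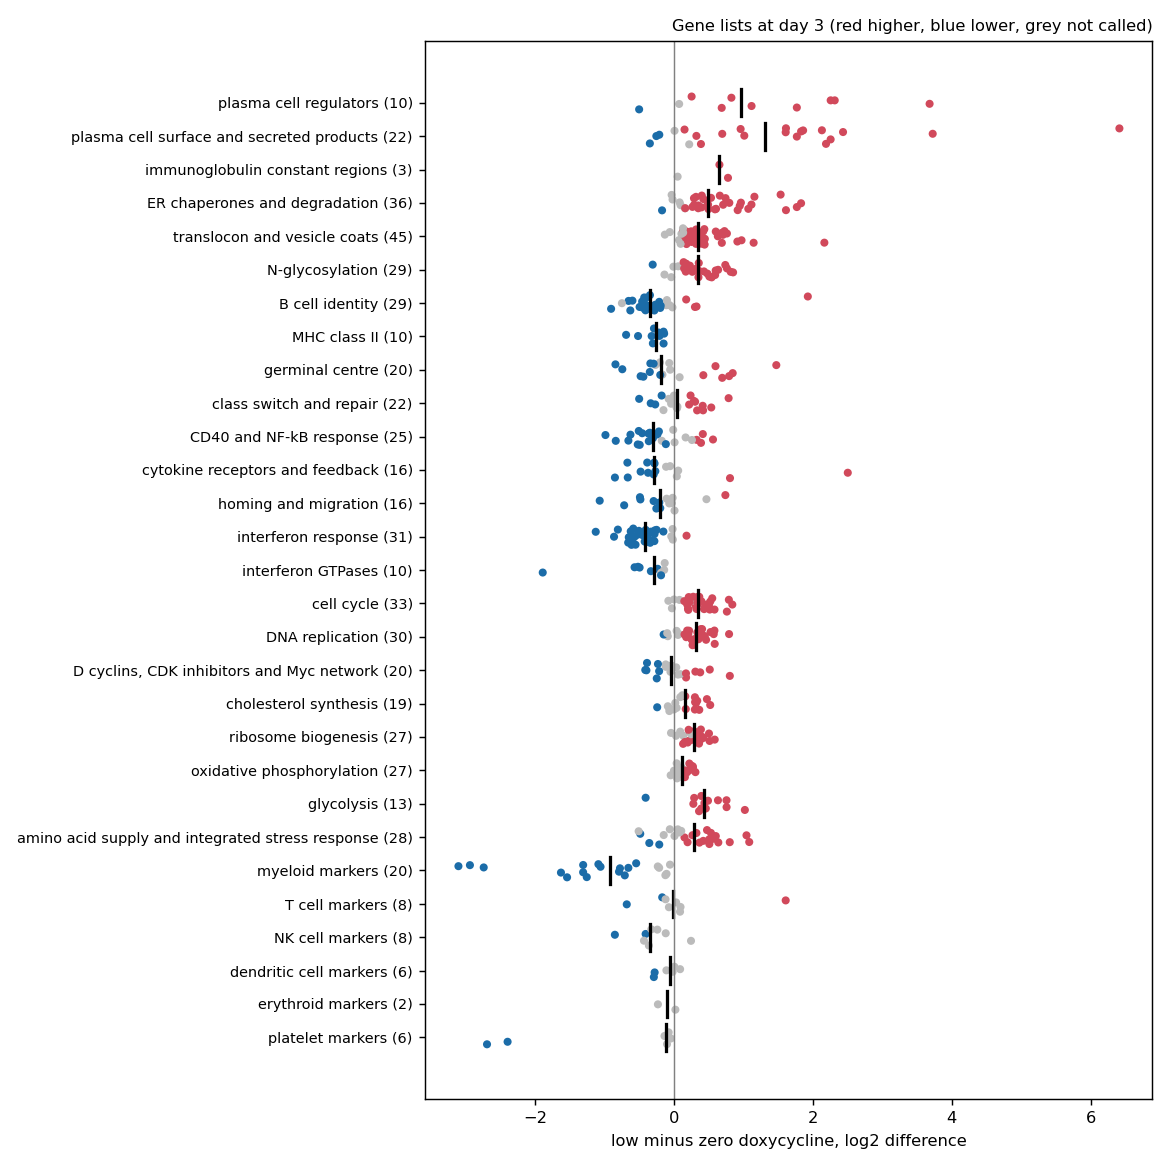
Low minus zero DOX log2 differences of all tested members of each gene list, 1 point per gene and a black bar at the list's median, with the number of tested members in brackets. Secretory lists have medians right of 0, B cell, MHC class II and interferon lists left of it, and myeloid markers reach -3.11.

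B cell identity genes moved the other way. Of 29 tested, 20 fell and 4 rose, and the median was -0.35. Pax5, the commitment factor of B cells, read 10.56, 10.59 and 10.52 at zero and 9.82, 9.91 and 9.97 at low DOX, a fall of 0.66 on the log2 scale (SE 0.057, adjusted p = 0.00021). The groups did not overlap. The surface receptor Cd72 fell by 0.91, the IgE receptor Fcer2a by 0.63, and the transcription factors Spib by 0.50, Ebf1 by 0.43 and Spi1 by 0.43. The call of Fcer2a was lost in 8 of the alternatives. Cd24a, a surface glycoprotein, went against the list: it read 11.76, 11.58 and 11.57 at zero and 13.68, 13.61 and 13.38 at low DOX, a rise of 1.92. Cd79a, a chain of the antigen receptor, was uneven at zero DOX (12.48, 13.90 and 12.53), and its difference of -0.75 was not called. Bach2, a repressor that delays plasma cell fate, differed by -0.07 and was not called. Other defining B cell markers fell little: Cd79b by 0.22, Ms4a1 by 0.19 (a call lost in 7 of the alternatives) and Cd22 by 0.35. Blnk differed by -0.11 and was not called. The summed intensity of these 5 markers, Cd79a included, lay between 58117.5 and 69468.8 at zero and between 47937.8 and 51962.9 at low DOX, so the cultures kept strong B cell signals.

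MHC class II genes, for antigen presentation to T cells, fell in 10 of 10 members, by small amounts with a median of -0.26. Ciita, their transactivator, read 11.95, 12.06 and 11.97 at zero and 11.10, 11.36 and 11.44 at low DOX, a fall of 0.69. The groups did not overlap. H2-Oa fell by 0.52, whereas H2-Aa, H2-Ab1 and Cd74 each fell by 0.15. The count was 4 without replicate 2, 5 with arrays centred on their medians and 6 without the replicate block.

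Germinal centre genes split. Of 20 tested, 8 fell and 6 rose, against 23.4% and 21.0% of all genes. Bcl6, the master repressor of germinal centre B cells, read 11.21, 11.27 and 11.51 at zero and 10.42, 10.40 and 10.92 at low DOX, a fall of 0.75 (SE 0.11, adjusted p = 0.0019). The groups did not overlap. Fas (-0.85) and Il21r (-0.48) fell. Neil1, a DNA glycosylase, rose by 1.47, Myb by 0.84 and Ezh2, a histone methyltransferase, by 0.69. The rise of Rgs13 (0.79) rested on dim signals, 5.71, 5.41 and 6.72 at low DOX against 5.10, 5.24 and 5.12, and was lost in 7 of the alternatives. Among class switch and repair genes 9 of 22 rose and 4 fell (40.9% and 18.2%, against 21.0% and 23.4% of all genes). The ligase Lig4 (0.78) and the uracil glycosylase Ung (0.53) rose, and the kinase Atm fell by 0.50. Without the replicate block 2 fell.

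Genes that respond to the stimulus itself fell more often than they rose. In the CD40 and NF-kB list 16 of 25 fell and 4 rose, with a median of -0.31. The receptor Cd40 read 11.94, 11.83 and 11.98 at zero and 10.92, 11.05 and 11.26 at low DOX, a fall of 0.84 without overlap. The chemokine Ccl22 fell by 0.99, the costimulator Cd86 by 0.66, and the regulators Nfkbiz, Bcl3 and Tnfaip3 by 0.63, 0.53 and 0.51. Ccl22 varied widely between replicates (12.36, 11.92 and 11.21 at zero, 11.21, 10.88 and 10.42 at low DOX), so that its groups touched although each pair fell. Tnf (0.56), Bcl2l1 (0.41), Pim1 (0.39) and Cd80 (0.32) rose, a count of 2 without the replicate block.

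Cytokine receptors and feedback genes fell in 10 of 16 members and rose in 2. Cish (-0.85) and Socs1 (-0.67), both inhibitors of cytokine signalling, fell, while their relative Socs2 rose by 2.50. Socs2 read 10.59, 9.97 and 9.99 at zero and 12.87, 12.60 and 12.59 at low DOX. The IL-2 receptor chain Il2ra rose by 0.80. Il4ra (-0.28) and Il5ra (-0.30), receptors for cytokines in the medium, fell. Homing and migration genes fell in 9 of 16 and rose in 1, the integrin Itgb1 (0.74). The sphingosine receptor S1pr3 fell by 1.07 and the chemokine receptor Ccr6 by 0.72. Without the replicate block 5 of these genes fell.

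Interferon-induced genes fell almost throughout. In the interferon response list 27 of 31 fell and 1 rose, Bst2 (0.18), and the median was -0.43. Without the replicate block 18 fell and none rose. Ifit1, printed above, read 10.91, 10.96 and 10.41 at zero and 10.11, 10.39 and 9.78 at low DOX, a fall of 0.66 without overlap between groups. Its call was lost without the replicate block. Ifi207 fell by 1.13, the RNA sensor Ifih1 by 0.87, and Irf7 by 0.65. Among interferon-induced GTPases 7 of 10 fell. Gbp2b read 11.53, 11.73 and 11.24 at zero and 9.39, 10.10 and 9.32 at low DOX, a fall of 1.89 (SE 0.10, adjusted p = 4.3e-05). The groups lay more than 1 log2 unit apart. Gbp2 (-0.57) and Gbp7 (-0.52) fell with calls lost in 5 and 3 alternatives, and the GTPase count was 3 without replicate 1. Ifng itself read 11.12, 11.64 and 10.40 at zero and 9.54, 10.26 and 9.08 at low DOX, a fall of 1.43. The summed intensity of the NK cell markers, among the known sources of Ifng, lay between 7966.1 and 14998.2 at zero and between 6300.4 and 11565.0 at low DOX, and its part in these falls was not tested.

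Genes of cell division rose together. In the cell cycle list 28 of 33 rose, with a median of 0.34, and none fell in limma even at an unadjusted p under 0.05. The mitotic kinase gene Aurka read 10.32, 10.02 and 10.07 at zero and 11.07, 11.02 and 10.83 at low DOX, a rise of 0.84 without overlap. Cdc20 (0.79), Cdc25c (0.76) and Prc1 (0.58) rose too. The count was 9 in the fit of all 30 arrays without the block. DNA replication genes rose in 24 of 30 members and 1, Pole2 (-0.15), fell. Orc1 (0.79), Tk1 (0.58), Cdc45 (0.58) and Cdc6 (0.57) led. Pcna differed by 0.07 and was not called. Without replicate 2 the list's rises were 15. Among D cyclins, CDK inhibitors and the Myc network 6 of 20 rose and 6 fell, against 21.0% and 23.4% of all genes. Mxi1 (0.80), a Myc antagonist, Ccnd2 (0.51) and Myc (0.37) rose, and Mxd4 (-0.42), Mxd1 (-0.40) and Ccnd1 (-0.39) fell. The falls were 3 without replicate 2.

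Growth and metabolism genes also rose. Ribosome biogenesis genes rose in 22 of 27 members, with a median of 0.29, and none fell in limma even at an unadjusted p under 0.05. Nolc1 rose by 0.58, Bop1 by 0.51 and Gnl3 by 0.50. The count was 14 without replicate 2. Glycolysis genes rose in 12 of 13, and only Hk1 fell (-0.41) while Hk2, the inducible hexokinase, rose by 1.02. In the amino acid supply and integrated stress response list 17 of 28 rose and 3 fell. The amino acid transporter Slc7a5 read 10.26, 10.14 and 10.00 at zero and 11.31, 11.23 and 11.10 at low DOX, a rise of 1.08. The stress gene Ddit3 fell by 0.49. Oxidative phosphorylation genes rose in 13 of 27 by at most 0.31, a count that was 3 without replicate 2. Cholesterol synthesis genes rose in 10 of 19 and fell in 1, and 5 rose without the replicate block.

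The second dose step, from low to high DOX, shares the low arrays with the first. Calls at both steps are therefore counted as a description, and the steps were tested against each other only by a contrast of their difference. That contrast was positive (first step above second) in 588 genes (4.83%) and negative in 177 (1.45%). Of the 2556 genes that rose at the first step, 769 rose again, 83 fell and 1704 were not called at the second. Of the 2855 that fell at the first, 994 fell again, 45 rose and 1816 were not called. Step differences were the least stable calls: without replicate 2 none was made in the lists of plasma cell regulators, cell cycle, DNA replication, ribosome biogenesis, myeloid or NK cell genes.

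The secretory lists continued to rise. From low to high DOX 28 of 36 ER chaperone and degradation genes, 34 of 45 translocon and coat genes and 16 of 29 N-glycosylation genes rose. Without replicate 2 these counts were 5, 2 and 0, and without the replicate block 14, 16 and 9. Derl3 reached 11.30, 11.28 and 10.83 at high DOX, a further 0.76. Among regulators the steps differed for Prdm1, which gained 2.31 and then 0.88 (difference of steps 1.43, adjusted p = 0.0052), Bhlha15, Creb3l2, Eaf2 and Ell2. Xbp1, which gained 0.68 and then 0.25, was not called for that difference (0.43, adjusted p = 0.066). Slpi gained 2.25 and then 1.84, the largest rise of the second step, and its low arrays were spread (11.39, 10.76 and 9.88). Tnfrsf17 gained 0.96 and then 1.11, Rgcc 2.37 and then 1.70, and Pon3 2.43 and then 1.53.

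The lists of growth and metabolism differed at the second step. There 3 of 33 cell cycle genes rose, near the 9.41% of all genes that did. No DNA replication gene was called in limma, where 4 fell and none rose at an unadjusted p under 0.05. In ribosome biogenesis no gene rose, even at an unadjusted p under 0.05, and 7 fell, among them Nop16 (-0.32), Noc4l (-0.27) and Nop2 (-0.26). By contrast 6 of 13 glycolysis genes and 10 of 28 amino acid supply and stress genes rose at this step, counts of 1 and 1 without replicate 2. The step difference was called and positive in 19 of 27 ribosome biogenesis genes, 12 of 30 DNA replication genes and 6 of 33 cell cycle genes. These 3 counts were 1, 0 and 0 without the replicate block, and the 7 falls were 0 without replicate 2. Gnl3 read 11.86, 11.67 and 11.64 at zero, 12.33, 12.21 and 12.14 at low and 12.29, 12.20 and 12.17 at high DOX. Its low and high groups overlapped almost wholly, and the step difference was 0.51 (adjusted p = 0.015).

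**Figure D4:**
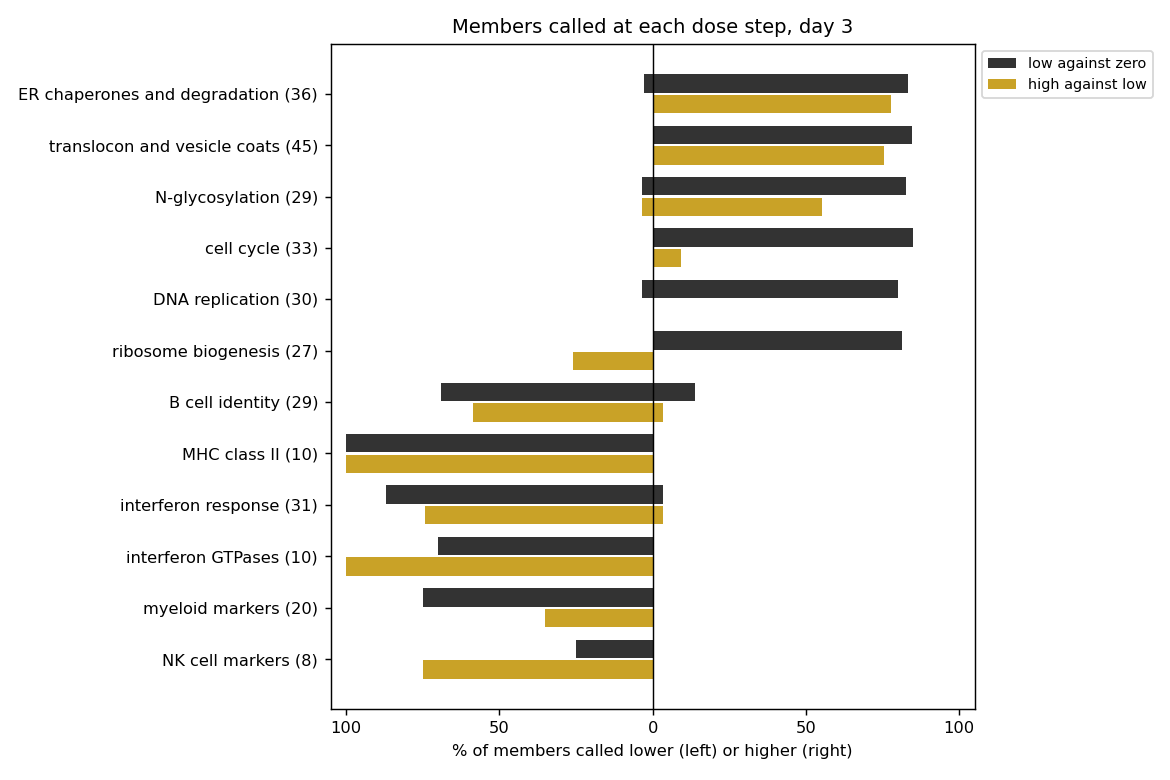
Percentage of tested members called higher (right) or lower (left) in 12 gene lists, black for low against zero and gold for high against low DOX. Secretory, B cell, MHC class II and interferon lists carry long bars at both steps, whereas cell cycle, DNA replication and ribosome biogenesis carry a long bar to the right only at the first.

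B cell and interferon genes fell at both steps. From low to high DOX 17 of 29 B cell identity genes, 10 of 10 MHC class II genes, 23 of 31 interferon response genes and 10 of 10 interferon GTPases fell. No member of the MHC class II and interferon lists had a called step difference. Without replicate 2 the 4 counts were 2, 1, 19 and 8, and without the replicate block 7, 1, 13 and 5. Gbp2b lost 1.89 and then 1.93, and Ciita 0.69 and then 0.84. Pax5 lost 0.66 and then 0.46, and Bcl6 lost 0.75 and then 0.68.

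Few genes turned back at the low dose. A peak, called higher than zero and then called lower from low to high DOX, was found in the 83 genes counted above, and in 79 of those with a proper gene name. Only Ccl5, a chemokine, moved by more than 0.5 at both steps. It read 10.11, 10.30 and 9.46 at zero, 10.38, 11.28 and 10.61 at low and 9.87, 10.59 and 10.05 at high DOX, so its zero and low groups did not overlap, its low and high groups did, and every pair rose and then fell. A dip was found in 44 named genes, such as Gsn (-0.42, then 0.41) and Atf5 (-0.36, then 0.33). Without replicate 2 there was no peak and there were 3 dips. Both calls of a peak or dip share the low arrays, so error in these arrays favours such pairs of calls.

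Among markers of other blood cells, those of myeloid cells fell most. Of 20 myeloid markers tested 15 fell, with a median of -0.93, none rose in limma even at an unadjusted p under 0.05, and 10 fell at least 2-fold. S100a9, a neutrophil calprotectin chain, read 8.50, 9.12 and 9.78 at zero, 5.72, 6.38 and 6.48 at low and 6.08, 5.88 and 6.22 at high DOX. It fell by 2.94 at the first step and differed by -0.13 at the second (not called), and the step difference was called (-2.81, adjusted p = 0.011). Its low and high readings were dim, so a further fall would be understated on this scale and the step difference is limited by that. Lyz2, a lysozyme of macrophages and neutrophils, read 10.39, 11.82 and 11.17 at zero, 9.12, 10.18 and 9.44 at low and 7.78, 8.22 and 7.37 at high DOX. It fell at both steps, by 1.54 and 1.79. The step difference was negative in 6 of the 20 markers, a count of 2 without the replicate block. The summed intensity of the list lay between 12524.2 and 21606.5 at zero and between 5718.5 and 8950.9 at low DOX, with no overlap. Defining markers at the dim end, Csf1r, Cd14, Csf3r and Elane, differed by -0.22 to -0.06 and were not called.

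**Figure D5:**
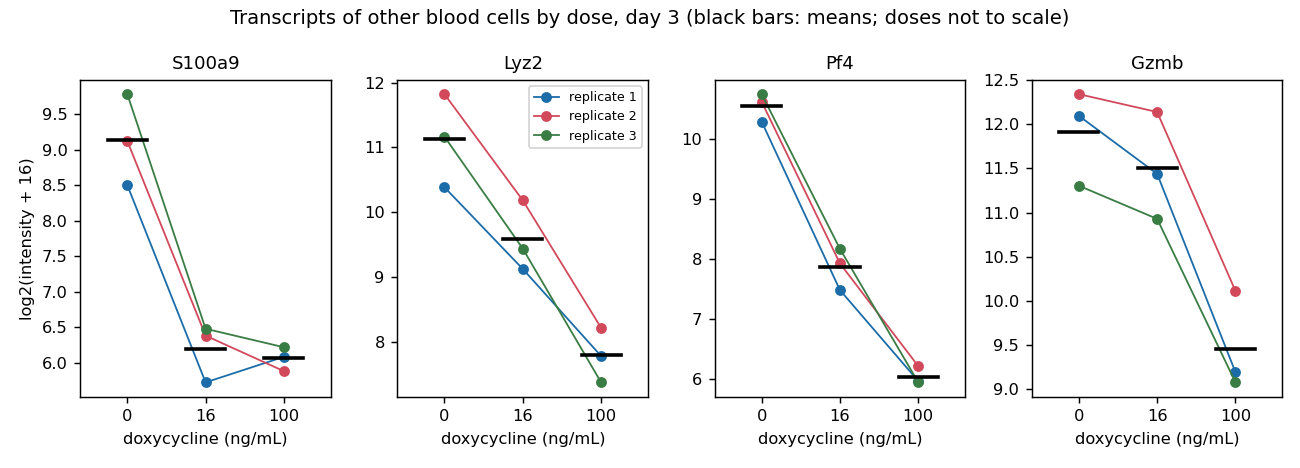
Levels of the myeloid transcripts S100a9 and Lyz2, the platelet chemokine Pf4 and the cytotoxic granule gene Gzmb at 0, 16 and 100 ng/mL DOX, as log2(intensity + 16), with a line per replicate and black bars at means. S100a9 falls at the first step and is dim at low and high DOX. Lyz2 and Pf4 fall at both steps, and most of the fall of Gzmb lies between low and high DOX.

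Platelet markers were split. Pf4 read 10.29, 10.63 and 10.75 at zero and 7.48, 7.93 and 8.17 at low DOX, and Ppbp fell by 2.40, while Gp9, Gp1bb, Itga2b and Treml1 differed by -0.14 to -0.05 and were not called. Of 8 NK cell markers 2 fell at low DOX, Gzma (-0.85) and Gzmb (-0.41), and 6 fell from low to high. Gzmb read 12.10, 12.34 and 11.30 at zero, 11.44, 12.14 and 10.93 at low and 9.19, 10.11 and 9.08 at high DOX. Its first step overlapped and lost its call in 10 alternatives, and the step difference was called (1.63, adjusted p = 0.014). Without the replicate block neither first-step NK call nor any NK step difference was made. Of 8 T cell markers Thy1 (-0.68) and Cd4 (-0.17) fell, Cd3d (-0.08) and Cd3g (0.09) were not called, and Cd28, also among the plasma cell products, rose. Of 6 dendritic cell markers Itgax (-0.29) and Zbtb46 (-0.28) fell (33.3%, against 23.4% of all genes), neither without the replicate block. The erythroid markers Epb42 (-0.23) and Slc4a1 (0.02) were not called. These markers moved alongside the interferon, chemokine and Lyz genes above, and their part in those results was not tested.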

How the data were processed

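Total RNA of 30 cultures was labelled and hybridised to Affymetrix mouse arrays, 1 per culture. Per the series text, the authors normalized the deposited intensities, 1 linear value per probe set and array, with the perfect-match model of D-Chip. MAS5 stands in the submitters' processing notes without a role. Here 16 was added and log2 taken. Of 45101 probe sets, 34945 had 1 gene symbol (34741 updated through RefSeq GRCm38.p6), 932 several, 9160 none and 64 were controls. Sets above the table median (188.2) on at least 3 arrays were tested, 21668 with 1 symbol. Each of 12183 genes was counted by its brightest set. Of 142 named genes 68 had other tested sets, and none of these sets was called in the opposite direction.

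limma 3.58.1 (R 4.3.3) was fitted to the 9 Irf4-/- arrays of day 3 with replicate number as a fixed block, with 4 residual degrees of freedom and Benjamini-Hochberg adjustment over all 21668 sets. The difference between the dose steps was added as a contrast after seeing the data. The fit was tested on simulated data. Deviations from group means correlated between same-numbered arrays at 0.355 to 0.793, and otherwise at -0.575 to 0.083. Sex-linked transcripts gave the same sex per number at every dose, male in replicates 1 and 2 and female in replicate 3. The labels do not say that doses shared mice.

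Named genes were the 15 largest rises and 15 largest falls among called genes whose groups did not overlap, a regulator panel, up to 4 members of each list by size of change, and the 8 largest each way from low to high DOX. Unnamed transcripts and variable genes were passed over. Further list members named in the text were picked after their values were seen. Members and lists were chosen with earlier results of these data known. Alternatives changed the added constant, the filter, the normalization, the block, the arrays fitted, the probe set rule and left out replicates. The number of arrays limits the precision.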

Additional observations from a re-analysis of the deposited data

How the results depend on the processing

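No called difference of a named gene or Irf4 set changed sign. The balance of counts did: rises outnumbered falls for low against zero DOX with arrays centred on their medians (2458 against 2318), without the replicate block (1937 against 1923) and without replicate 1 (2098 against 2003), low replicate 1 (2183 against 2122) or zero replicate 1 (2097 against 2030). Over all alternatives, named genes lost a call 92 times and gained one 5 times. Leaving out replicates gave 2653 to 4791 changed genes for low against zero DOX (1326 to 2254 higher, 1327 to 2537 lower), 115 to 142 at least 2-fold higher and 35 to 64 at least 2-fold lower. The lowest counts of changed genes came without replicate 2. For high against low DOX the range was 441 to 2464 (198 to 1184 higher, 243 to 1280 lower). The count of list members called, 422, ranged from 307 to 403. The Irf4 difference ranged from 5.45 to 5.55. The cultures were paired by number, and without the replicate block 3860 genes changed between low and zero DOX, and 933 between high and low DOX (501 higher, 432 lower, a turned balance too). The fit of all 30 arrays without the block gave 1491 for high against low DOX, 780 higher and 711 lower. Without replicate 3 (672 higher, 661 lower) and without low replicate 3 (484 and 469) that balance also turned. Centring arrays on their medians gave 678 higher at that step. The causes were not tested. Dim genes have understated differences, and 3 arrays per group limit the precision.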
